A study of Homo sapiens with 16 samples.

Results

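The short arm of human chromosome 5 (5p) carries TERT, the gene for the catalytic subunit of telomerase, close to its telomere. The arm was followed here through 4 lists of intervals called for the type II DNA topoisomerase TOP2B. An interval is a peak call, and whether it marks binding was not tested. An interval was placed on the arm when it lay on chromosome 5 with its midpoint below 46 Mb of GRCh37. This gave 1763 of the 44922 intervals in the 4 lists: 1308 of 9655 in treated wild type, 226 of 15281 in untreated wild type, 156 of 12493 in untreated knockout and 73 of 7493 in treated knockout. The arm was chosen by its interval counts in these same lists, so the counts are a description and no test is made of them.

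The cells were PC9, an established human lung adenocarcinoma line whose growth depends on mutant EGFR, either wild type or with a knockout of METTL7A, which codes for a methyltransferase-like protein. Treated cells of each genotype were grown in osimertinib, an inhibitor of mutant EGFR, over 6 to 8 weeks of dose escalation that began at 100 nM. The assay was CUT&RUN: an antibody tethers a nuclease, which releases the DNA around its target. Each of the 4 combinations of genotype and treatment had 2 replicate TOP2B libraries, from which the authors made 1 list, so no spread between replicates is available and no difference between conditions could be tested. The labels used here do not say whether the knockout line is 1 clone, and the genotypes were taken from the labels without a check at METTL7A.

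Type II topoisomerases pass 1 DNA duplex through a transient break in another and so release the torsion that builds up around transcription and chromatin loops. TOP2B is the isoform present in dividing and non-dividing cells alike, and it is known for binding at promoters, enhancers and loop anchors. TERT is silent in most somatic cells and active in most cancers, and extra copies of 5p are common in lung cancer.

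The TERT start region is printed here because the start of the gene lay inside a TOP2B interval in 1 list only. TERT is transcribed from the minus strand, towards the telomere, and lies at 1253287 to 1295162 of chromosome 5 on GRCh37. The sequence below is the RefSeq entry for its start (GRCh38.p14, minus strand), with 250 bases before the annotated start and 50 bases from it, written 5′ to 3′. Capitals mark the GC box, searched on both strands as GGGCGG or CCGCCC, and the palindromic E-box CACGTG. GC boxes of this promoter are known as binding sites of SP1, and E-boxes as sites of MYC family proteins.
TERT: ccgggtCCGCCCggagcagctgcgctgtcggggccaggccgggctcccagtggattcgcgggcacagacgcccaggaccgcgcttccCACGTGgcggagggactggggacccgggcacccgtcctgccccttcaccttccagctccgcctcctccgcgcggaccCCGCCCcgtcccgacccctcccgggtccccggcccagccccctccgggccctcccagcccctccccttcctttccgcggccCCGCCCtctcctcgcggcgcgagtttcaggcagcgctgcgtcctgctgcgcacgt
The window held 3 GC boxes, with first bases at positions 7, 165 and 246, and 1 E-box with its first base at position 88. These motifs did not overlap. Of 35116 RefSeq start regions of the same length, 45% held a GC box, 7.26% an E-box and 4.24% both. Bases G and C made up 77.3% of the window. These matches describe the letters only. Since the table and the lists use different builds and may place the start at different bases, the motifs were not positioned on the intervals.

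Within the gene, the lists differed in how much of TERT the intervals covered and where. Treated wild type had 6 intervals that overlapped the 41876 bp of the gene and covered 25.6% of it. Untreated wild type had 2 intervals over 16.5%. Both knockout lists had 1 interval, over 3.94% of the gene without treatment and 2.51% with it. Treated wild type was therefore the list with most of the gene covered, and both knockout lists had the least. From 1 to 2 Mb, the stretch around the gene, intervals covered 28.5% in treated and 15.8% in untreated wild type. They covered 5.41% in untreated and 2.36% in treated knockout, so the order of the lists was not particular to the gene.

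At the start of the gene, the interval from 1293451 to 1295250 in treated wild type ran from 88 bases upstream of the start to 1711 bases inside the gene. The next interval of that list began 239 bases upstream, at 1295401. Both were pieces of a called peak in 4 pieces, whose highest coverage lay at 1293801 to 1295350, across the start. No interval of another list reached the start. In untreated wild type the nearest was a 200 bp interval that began 989 bases upstream, at 1296151. In untreated knockout the nearest was 19589 bases upstream, and in treated knockout it was 23112 bases downstream, inside the gene. Where a list has no interval, binding may still be present below what entered the list.

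Inside the gene the lists shared only some positions. The only gene interval of untreated knockout lay at 1261751 to 1263400, 31762 to 33411 bases downstream of the start, and overlapped an interval of treated wild type (1259651 to 1262750) but none of untreated wild type. That of treated knockout lay at 1271001 to 1272050. Untreated wild type had intervals at 1264451 to 1266600 and at 1277101 to 1281850. Treated wild type had intervals within reach of both of these, at 1265551 to 1267450 and at 1278351 to 1279550 and 1280251 to 1281900. The wild-type lists thus overlapped each other at both of these places in the gene, while neither wild-type list overlapped the treated knockout interval.

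The far end of the gene lay in the longest called peak of the arm. A called peak is the stretch the authors' peak caller reported in a library; where it was intersected with narrower peaks of the other replicate, it appears in the list as several pieces that share 1 area and 1 maximum. Its span is taken from the first to the last of its pieces, the place of the maximum included, and is a lower bound of its extent. In treated wild type this peak ran from 1200451 to 1267450, a span of 67 kb in 18 pieces, and held the last 14164 bases of TERT. Its area, the summed coverage, was 13.5 times the median of its list, and its maximum 1.73 times. All 3 called peaks of treated wild type over TERT together spanned 49.6% of the gene, against 17.4% in untreated wild type.

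**Figure D1:**
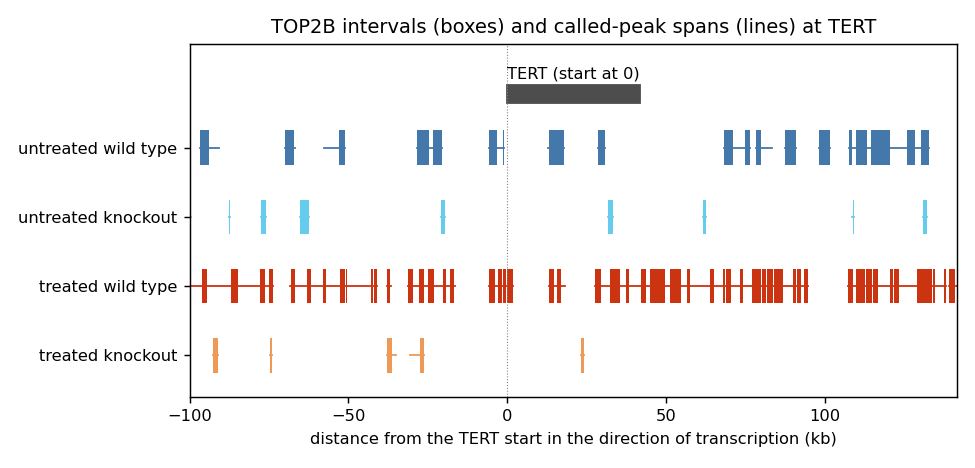
TOP2B intervals (boxes) and spans of called peaks (lines) within 100 kb of TERT in the 4 lists, with distance from the TERT start in kb along the x axis and the gene as a grey bar. Treated wild type has 52 intervals in this stretch, and it is the list with a box at distance 0.

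The flanks of TERT followed the gene. Within 100 kb on each side, the intervals numbered 52 in treated wild type, 19 in untreated wild type, 8 in untreated knockout and 5 in treated knockout, and covered 34.6%, 21.3%, 4.18% and 2.46% of the stretch in that order. In the RefSeq order of named coding genes, TERT stands between SLC6A18, of an amino acid transporter family, and CLPTM1L, its neighbour in a region known for association with lung cancer risk. Positions of these and other genes of the arm on GRCh37 were not used here, so no interval is assigned to them.

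The window of 1 Mb that holds TERT, from 1 to 2 Mb, held most intervals of the arm in every list, tied with the first Mb in treated knockout. It held 173 intervals in treated wild type, 54 in untreated wild type, 37 in untreated knockout and 20 in treated knockout. With each called peak counted once the numbers were 32, 34, 37 and 20 in that order, so here treated wild type had more pieces and longer spans but not more peaks. Spans of called peaks covered 62.8% of this window in treated wild type, 23.8% in untreated wild type, 5.58% in untreated knockout and 3.46% in treated knockout. The 3 longest called peaks of the arm, with spans of 67, 62.5 and 60.6 kb, were all in this window and all in treated wild type. The second ran from 1465001 to 1527550 in 16 pieces and the third from 1779001 to 1839600, also in 16. The longest of untreated wild type on the arm, from 1162301 to 1187500 with 25.2 kb, lay in the same window.

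Over the arm as a whole, the share of the list was 13.5% in treated wild type (exact Clopper-Pearson 95% interval 12.9 to 14.2), 1.48% in untreated wild type (1.29 to 1.68), 1.25% in untreated knockout (1.06 to 1.46) and 0.974% in treated knockout (0.764 to 1.22). These intervals cover counting error only, and neighbouring intervals are not independent. The ratio of shares was 9.16 for treated over untreated wild type (exact conditional 95% interval 7.95 to 10.6) and 0.78 for treated over untreated knockout (0.583 to 1.04). For knockout over wild type it was 0.844 without treatment (0.684 to 1.04) and 0.0719 under treatment (0.056 to 0.0911). Treated wild type thus stood apart from the other lists, which lay within 0.974 to 1.48%. The 4 comparisons reuse the same lists and are not independent of each other.

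The higher number in treated wild type was also a higher covered length. Its intervals on the arm covered 1714 kb, or 3.73% of 46 Mb, against 584 kb (1.27%) in untreated wild type, 247 kb (0.537%) in untreated knockout and 84.5 kb (0.184%) in treated knockout. Median widths were 1200 bp in treated wild type (interquartile range 950 to 1500), 2450 bp in untreated wild type (1850 to 3050), 1500 bp in untreated knockout (1100 to 1950) and 1150 bp in treated knockout (750 to 1500). The medians of the whole lists were 1200, 2600, 1650 and 1150 bp in that order, so width on the arm followed the list. Neighbouring midpoints on the arm lay a median of 10 kb apart in treated wild type, 27.8 kb in untreated wild type, 58.7 kb in untreated knockout and 54.1 kb in treated knockout.

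**Figure D2:**
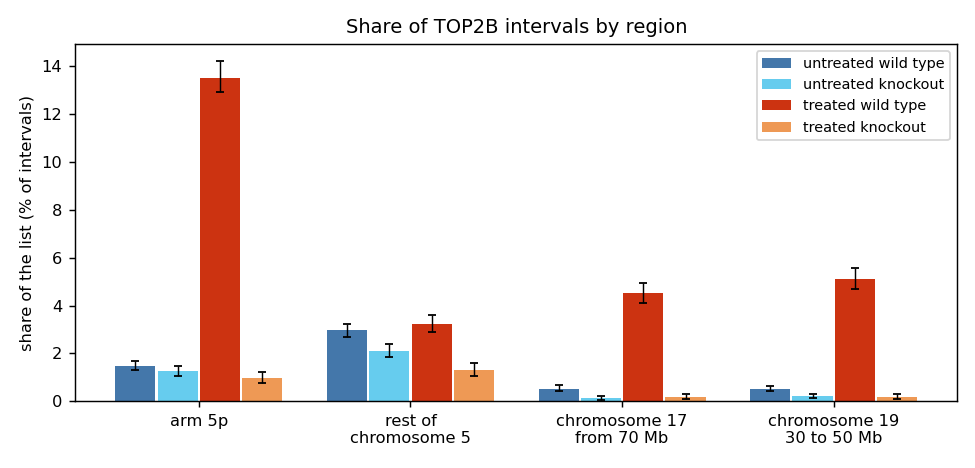
Share of each list's intervals (y axis, percent, bars from 0, with exact 95% intervals for counting error) on arm 5p, the rest of chromosome 5, chromosome 17 from 70 Mb and chromosome 19 from 30 to 50 Mb. The treated wild-type bar for 5p stands at 13.5%, against 0.974 to 1.48% in the other lists.

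The rest of chromosome 5 differed from the arm mainly in the comparisons that include treated wild type. It held 311 intervals in treated wild type, 453 in untreated wild type, 264 in untreated knockout and 99 in treated knockout, and its ratio of shares for treated over untreated wild type was 1.09 (0.937 to 1.26). For knockout over wild type under treatment it was 0.41 (0.324 to 0.516), in the same direction as the arm's 0.0719 but nearer to 1. For treated over untreated knockout it was 0.625 (0.491 to 0.791), beside 0.78 on the arm. For knockout over wild type without treatment it was 0.713 (0.61 to 0.831), beside 0.844 on the arm. The arm made up 80.8% of the chromosome 5 intervals in treated wild type (78.8 to 82.7), 33.3% in untreated wild type (29.7 to 37), 37.1% in untreated knockout (32.5 to 42) and 42.4% in treated knockout (35 to 50.2). No list had an interval between 45910400 and 49429801, a stretch that holds the centromere. The last interval inside the boundary was at 45908701 to 45910400, in treated wild type, with a maximum of 0.818 times its list median. The first outside was at 49429801, shared by 3 lists and reaching 3.82 times the list median in treated wild type. Treated wild type had 3 intervals from 46 to 50 Mb and then none until 131320201.

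**Figure D3:**
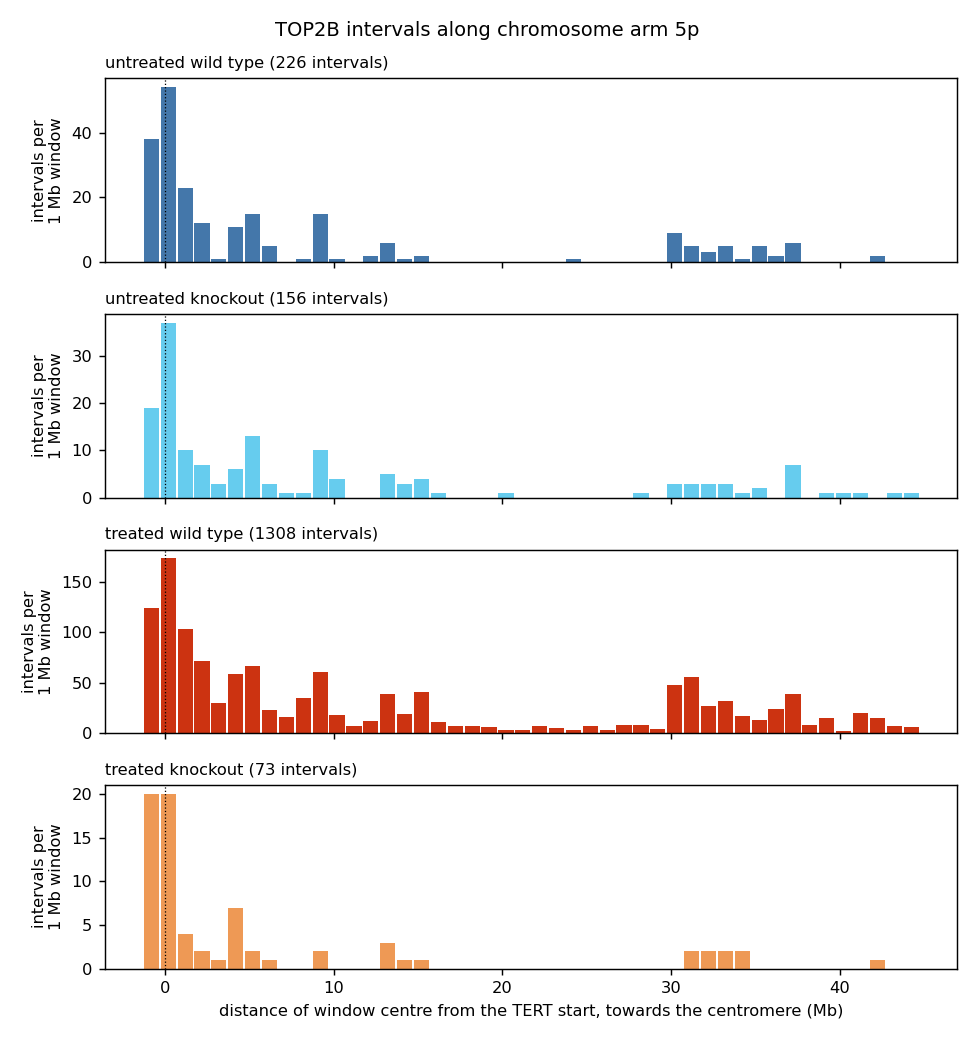
Number of intervals per 1 Mb window (y axis, a separate scale for each list) by distance of the window centre from the TERT start (x axis, Mb, dotted line at 0) along arm 5p. The peak of each panel lies at the window of TERT or beside it, and the treated wild-type panel has intervals in all 46 windows.

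Along the arm, the larger number of intervals in treated wild type was found in every window. Intervals were found in all 46 windows of 1 Mb in treated wild type, with a minimum of 2 and a median of 15. Untreated wild type had intervals in 25 windows, untreated knockout in 30 and treated knockout in 17. In each of the 46 windows treated wild type held more intervals than any other list. At 1 to 2 Mb this was not so with each called peak counted once. The order of windows was similar between lists, with Spearman's rho over the 46 windows of 0.862 between the wild-type lists, 0.757 between the treated lists, 0.787 between the untreated lists and 0.732 between the knockout lists. These values describe windows of single lists that share the base composition and gene content of the arm.

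Blocks of the arm, drawn after the profile had been seen, show where the members lay. The first 2 Mb held 297 intervals in treated wild type, 92 in untreated wild type, 56 in untreated knockout and 40 in treated knockout, or 22.7%, 40.7%, 35.9% and 54.8% of the arm's intervals. Treated wild type thus had the smallest part of its arm intervals next to the telomere. From 17 to 31 Mb the counts were 82, 1, 3 and 0 in the same order. From 31 to 39 Mb they were 256, 36, 22 and 8, and from 39 to 46 Mb 73, 2, 5 and 1. Intervals per Mb from 17 to 31 Mb were 5.86 in treated wild type, against 28.4 over its whole arm. They were 0.0714 against 4.91 in untreated wild type, 0.214 against 3.39 in untreated knockout and 0 against 1.59 in treated knockout. This stretch was thus sparse beside its own arm, but in treated wild type denser than the whole arm of any other list. The middle of the arm had runs of empty windows in all lists but treated wild type. The longest were 17 to 25 Mb in untreated wild type, 22 to 29 Mb in untreated knockout and 17 to 32 Mb in treated knockout.

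Window by window, the ratio of shares varied about its median. Among the 14 windows with at least 5 untreated wild-type intervals, the ratio of shares for treated over untreated wild type ran from 4.12 to 17.7 with a median of 7.86. At 1 to 2 Mb, with TERT, it was 5.07 (3.72 to 7.02), and in the first Mb 5.16 (3.57 to 7.64). At 32 to 33 Mb it was 17.7, with 5 untreated and 56 treated intervals (7.16 to 56.7). The minimum of 5 left out windows with fewer untreated intervals, some of them with higher ratios. At 9 to 10 Mb the ratio was 55.4, with 1 untreated and 35 treated intervals (9.31 to 2250). At 33 to 34 Mb, also left out, it was 14.2 with 3 and 27 (4.38 to 73.4). Both windows next to the telomere lay below the median, although they held most intervals. With each called peak counted once, the ratio was 1.49 at 1 to 2 Mb (0.891 to 2.49) and 1.99 in the first Mb (1.21 to 3.31), both under 2-fold, and 10.7 at 32 to 33 Mb (3.73 to 42.1).

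A window entered this count when 1 of the compared lists had at least 20 intervals there, and 0.5 was added to each count; the same rule was run over all chromosomes. For treated over untreated wild type, 19 of 19 windows of the arm passed a 2-fold higher share and 0 a 2-fold lower one, while over all chromosomes 29.6% were higher and 37.5% lower. For knockout over wild type under treatment, 19 of 19 were lower and 0 higher, against 49.5% lower and 33% higher over all chromosomes. Untreated wild type reached 20 intervals only from 0 to 3 Mb (38, 54 and 23), and treated knockout only from 0 to 2 Mb (20 and 20). The other arm windows in these 2 counts entered through treated wild type alone, so the rule itself favoured these directions. With each called peak counted once, 14 of 16 windows were higher in the wild-type comparison, all but the 2 next to the telomere, and 15 of 16 were lower in the treated comparison, all but that of TERT. In the other comparisons the arm had few windows to examine. For treated over untreated knockout, 0 of 2 passed, against 3.16% higher and 10.1% lower over all chromosomes. For untreated knockout over untreated wild type, 0 of 3 passed, against 1.3% higher and 13.4% lower. Because the arm was chosen from these contrasts, the counts of windows are a description and support nothing further.

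Called peaks on the arm were longer in treated wild type. Counted once each, they numbered 728 in treated wild type, 192 in untreated wild type, 156 in untreated knockout and 67 in treated knockout. The median span was 3900 bp in treated wild type (interquartile range 1850 to 8300), against 3450 bp for that whole list, and 3575 bp in untreated wild type against 4050 bp. In the knockout lists it was 1575 bp against 1750 bp without treatment and 1550 bp against 1700 bp with it. The arm was thus above its list in treated wild type and below its list in the other 3.

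The difference lay in the longest peaks. In treated wild type, 48 of the 728 called peaks (6.59%) spanned over 20 kb, against 2.4% of the whole list, and 38 were in 5 or more pieces. Untreated wild type had 2 such spans on the arm (1.04%, against 4.94% of its list), and both knockout lists had 0. The share of peaks in more than 1 piece was 33% in treated wild type, 13.5% in untreated wild type, 7.46% in treated knockout and 0% in untreated knockout, against 26.9%, 27.1%, 17.5% and 1.69% of the whole lists. Of the 48 long spans, 16 were in the first 2 Mb, 22 from 2 to 17 Mb and 10 from 31 to 39 Mb. None lay from 17 to 31 Mb or beyond 39 Mb.

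**Figure D4:**
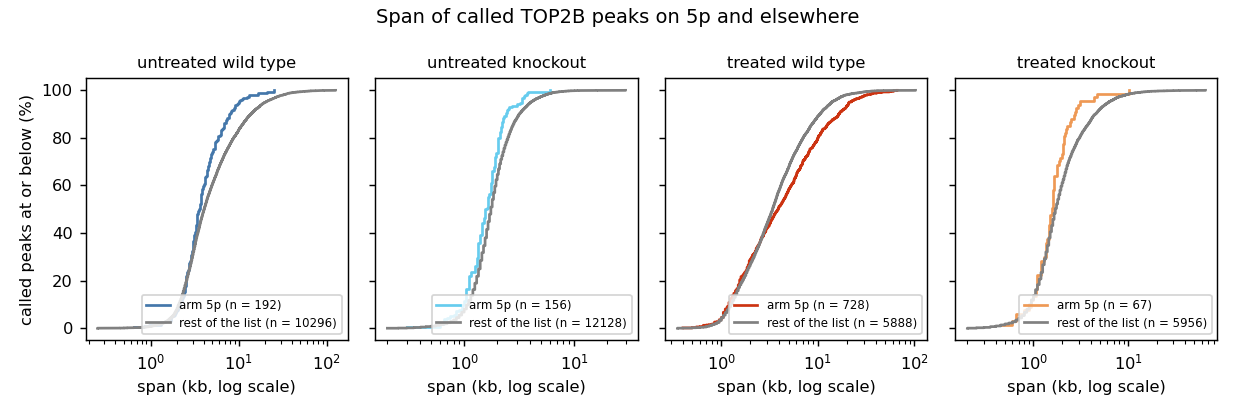
Cumulative share of called peaks (y axis, percent) by span (x axis, kb, log scale) on arm 5p (coloured) and in the rest of each list (grey). In treated wild type the 5p curve runs to the right of the grey curve above the median, and in the other 3 lists it runs to the left.

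The arm's peaks were also higher within the list in treated wild type. The median maximum of the arm's called peaks was 1.09 times the list median in treated wild type, 0.909 in untreated wild type, 1 in untreated knockout and 0.875 in treated knockout. The deposited coverage comes in whole steps, and the arm medians stood at 12, 10, 5 and 7 steps beside list medians of 11, 11, 5 and 8 in the same order, so each of these medians differs by at most 1 step. Called peaks above the list median made up 66.2% of the arm in treated wild type against 32.7% of that list. In the other 3 lists they made up less of the arm than of the list: 25.5% against 40.5% in untreated wild type, 34.6% against 44.3% in untreated knockout and 25.4% against 40.6% in treated knockout. Median area was 1.43 times the list median in treated wild type and 0.775 to 0.901 times in the other 3. In treated wild type the area ratio was 3.39 in the window of TERT and 0.87 from 17 to 31 Mb.

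Other regions also held a larger share in treated wild type. Chromosome 17 from 70 Mb had a ratio of shares for treated over untreated wild type of 8.42 (6.63 to 10.8) and chromosome 19 from 30 to 50 Mb of 9.75 (7.69 to 12.5), beside 9.16 on the arm. In treated wild type the median span was 3900 bp on the chromosome 17 region and 3500 bp on the chromosome 19 region, beside 3900 bp on the arm, and 36.7% and 34.4% of the called peaks were in more than 1 piece, beside 33%. The values lay further apart for the longest peaks. Spans over 20 kb made up 1.5% of the called peaks of the chromosome 17 region and 1.86% of those of the chromosome 19 region, beside 6.59% on the arm, and the most pieces in 1 peak were 9 and 10, beside 18. These differences were not tested.

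A stretch of the first Mb held the highest or second highest called peak of the arm in all 4 lists. The interval from 757251 to 765050 in untreated wild type had 2.91 times the list median and ranked 18 of 10488 called peaks. Intervals over the same stretch led the arm in untreated knockout (757351 to 763400, 2 times) and treated knockout (757601 to 762800, 2.25 times). In treated wild type the interval at 756251 to 762750, with 2.27 times, came after that at 774551 to 778500, with 2.36 times. This stretch of the first Mb was thus high whatever the genotype or treatment, while the number of intervals on the arm was not alike.

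Other leading peaks differed between lists. In untreated knockout the next 2 were at 11127101 to 11127900 and at 16666551 to 16668350, both at 1.8 times the list median. In untreated wild type they were at 774551 to 778500 (1.73 times) and at 1706251 to 1710450 (1.55 times). Treated knockout had 2583051 to 2584600 (1.62 times) and 5306851 to 5308300 (1.5 times), and treated wild type had a peak in 14 pieces from 1868551 to 1926450 (1.91 times).

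Positions found in all 4 lists lay mostly in the first Mb. Of the 1308 treated wild-type intervals on the arm, 8 overlapped an interval of each of the other lists by at least 1 bp. Of these, 6 lay between 756251 and 864950, in the first Mb. Those from 756251 to 766950 were 3 pieces of 1 called peak. Outside the first Mb, the others were at 14730501 to 14731400 and at 34191251 to 34193750. At the last of these the maximum was 1.82 times the list median in treated wild type, 1.27 in untreated wild type, 1.2 in untreated knockout and 1.12 in treated knockout. Of the treated wild-type intervals on the arm, 1062 (81.2%) overlapped none of the other lists. The same shares over the whole treated wild-type list were not computed, and the arm was chosen by its counts. Neither count is therefore read as a trait of the arm.

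Intervals of the other lists on the arm often had a treated wild-type counterpart, that is, an interval overlapping by at least 1 bp. This held for 138 of 226 in untreated wild type (61.1%, 95% interval 54.4 to 67.5), for 73 of 156 in untreated knockout (46.8%, 38.8 to 54.9) and for 43 of 73 in treated knockout (58.9%, 46.8 to 70.3). Over the whole lists the shares were 14.8%, 12% and 13.4%. Treated wild type covered 3.73% of the arm, more than any other list, and the part of this in the overlaps was not tested. In untreated wild type, 80.4% of the 92 intervals in the first 2 Mb had a treated counterpart, and 46.3% of the 95 from 2 to 17 Mb. Treated wild-type intervals covered 23.8% of the first of these blocks and 4.93% of the second, so an overlap was easier to meet in the first.

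In the other direction, a smaller share of the arm's intervals than of the whole list had a counterpart. The arm was chosen by its counts. Its 1308 treated wild-type intervals could meet only 226, 156 and 73 intervals of the other lists, so a low share is partly built in. Of the treated wild-type intervals on the arm, 13.2% (11.4 to 15.2) had a counterpart in untreated wild type, 6.04% (4.81 to 7.47) in untreated knockout and 3.36% (2.45 to 4.49) in treated knockout, against 28.7%, 16.6% and 10.5% of the whole list. The 173 treated wild-type intervals with an untreated wild-type counterpart had a median width of 1500 bp and a median maximum of 1.45 times the list median. The 1135 without one had 1150 bp and 1.18 times. A wider interval meets the 1 bp rule more easily, so the difference in width is partly built in. The maximum is that of the whole called peak, and its place lay outside the interval for 73.1% of these arm intervals. The share with an untreated wild-type counterpart also varied by place. It was 32.3% of the 297 intervals in the first 2 Mb and 9% of the 600 from 2 to 17 Mb.

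Between the lists other than treated wild type, sharing on the arm was low. Untreated wild type had a counterpart in untreated knockout for 17.3% of its arm intervals (12.6 to 22.8) and in treated knockout for 11.9% (8.02 to 16.9), against 35.1% and 21.1% of the whole list. Untreated knockout had one in untreated wild type for 26.9% (20.1 to 34.6) and in treated knockout for 5.77% (2.67 to 10.7), against 53.7% and 23.4%. Treated knockout had one in untreated wild type for 38.4% (27.2 to 50.5) and in untreated knockout for 13.7% (6.77 to 23.8), against 59.6% and 43.7%. The knockout lists thus shared 9 of 156 and 10 of 73 arm intervals with each other. The rest of chromosome 5 was about as low, with 4.17% and 11.1% between the knockout lists. There, untreated wild type had a counterpart in untreated knockout for 15.9% and in treated knockout for 7.73%. Untreated knockout had one in untreated wild type for 28.4%, and treated knockout for 35.4%. Low sharing between these lists was thus not particular to the arm.

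**Figure D5:**
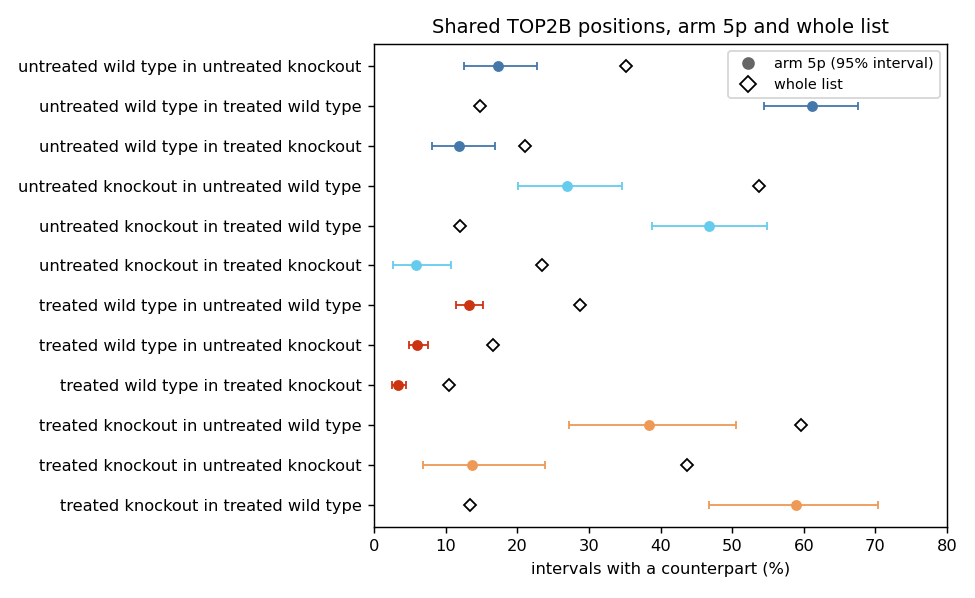
Share of intervals with a counterpart in another list (x axis, percent) on arm 5p (filled circles, exact 95% intervals for counting error) and in the whole list (open diamonds), for the 12 ordered pairs of lists. Circles lie above the diamonds for the 3 pairs searched in treated wild type, and below them for the other 9. The arm was chosen by its interval counts, which bear on the shares of pairs with treated wild type.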

How the data were processed

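CUT&RUN intervals of 8 TOP2B libraries (4 groups of 2) were analysed; the 8 H2A libraries and the DNA content of the arm were not analysed here. Per the submitters' processing notes, the authors used Trimmomatic, FastQC, Bowtie2 2.4.2, SAMtools 1.16, SEACR, deepTools 3.5.1 and bedtools 2.30 on GRCh37. Settings of the peak caller, scaling and treatment of duplicates: not given in the sources used here. Library depth is unknown.

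The 4 lists have no header, and columns were identified from their values. The deposited area is a score, coverage summed over a called peak. The deposited maximum is a signal, the highest coverage of a called peak, in whole steps that differ between lists. Maxima were therefore compared only within a list. Intervals with the same area, maximum and place of the maximum were joined into 1 called peak. Positions count from 1.

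Arm, comparisons and lists of positions were chosen with earlier results of these data known. The rule named TERT, the 3 highest called peaks and the 3 densest windows of each list, the intervals nearest TERT, empty runs of at least 3 windows and positions in all 4 lists. Longest spans and blocks were added after values had been seen. The code (Python 3.11.15, pandas 2.3.3, scipy 1.17.1) was tested on simulated data.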

Additional observations from a re-analysis of the deposited data

Results flagged for a closer look

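The ratio of the 5p list share, treated over untreated, was 9.16 in wild type (226 and 1308 intervals) and 0.78 in the knockout (156 and 73), on opposite sides of 1. The interval of the knockout ratio, 0.583 to 1.04, includes 1. The difference between the genotypes was not tested, since each condition has 1 list, and these counts are among the values that chose the arm.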

How the results depend on the processing

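Of 88 alternative values, 47 stayed within the counting error (or, for counts, within 1.5 times) and 41 moved. With each called peak counted once, the arm's share was 1.83% in untreated and 11% in treated wild type, and the ratio of shares 6.01 for treated over untreated wild type and 0.101 for knockout over wild type under treatment. By summed length the untreated wild-type share was 1.2% and the wild-type ratio 11.8. With intervals at or above the median maximum of their list, shares were 20% and 0.845% in treated and untreated wild type and 0.75% in treated knockout, with ratios of 23.6 for the wild-type comparison, 0.0375 for the treated genotypes and 1.4 for the untreated genotypes, the last on the other side of 1. Against the rest of chromosome 5, ratios were 1.25 for the knockout under treatment and 1.18 for the untreated genotypes, both also past 1, and 0.175 for the treated genotypes. In bins of 10 kb, chosen after seeing the data, shares were 1.49% in untreated knockout and 12.3% in treated wild type, with ratios of 7.68 and 0.0964 for the wild-type and treated comparisons. In the wild-type and treated comparisons the direction was the same in every setting run. Windows of 5 Mb gave 9 windows past 2-fold in each of these comparisons, of 9 examined; a minimum of 10 intervals gave 2 windows for the knockout comparison, and called peaks gave 1 for the untreated genotypes. Requiring an overlap of 50% of both intervals, counterparts were 25.2% (untreated in treated wild type), 4.36% (the reverse), 1.92% (untreated in treated knockout), 4.11% (the reverse), 4.87% (untreated wild type in knockout), 7.05% (the reverse), 1.83% (treated wild type in knockout) and 32.9% (the reverse). With the higher maxima they were 71.6%, 5.48%, 13.6% and 2.03% for the first, second, sixth and seventh of these. At TERT, a flank of 10 kb gave 4 intervals in untreated and 12 in treated wild type, and a flank of 100 kb gave 52 and 19 in treated and untreated wild type and 5 and 8 in treated and untreated knockout. Some changes follow from the settings: wider flanks hold more of the arm, and fewer windows of 5 Mb fit on it. Shares under the 50% overlap can only be equal or lower, since it is stricter than 1 bp. The cause of the other changes was not tested. No paired analysis was possible because each list was made from both replicates and holds no value per replicate; for the same reason no replicate was left out.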
